A study of Mus musculus with 34 samples.

Results

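Learning is followed by the transcription of early genes, and these fall into a class that encodes transcription factors and a class whose products act directly on the cell. The genes described here are 10 of the second class, activity-regulated effector and secreted genes: *Ptgs2*, *Nptx2*, *Plk2*, *Plk3*, *Inhba*, *Vgf*, *Scg2*, *Pcsk1*, *Rgs2* and *Rgs4*. They were taken by GENCODE symbol from the 54532 genes of a bulk RNA-seq table, and all 10 passed the filter on low counts that left 22018 genes for testing. RNA came from the whole dorsal hippocampus of adult male C57BL/6J mice aged 2 to 3 months, which carried no transgene. The homecage group (HC, n = 4) was handled and stayed in the homecage. The SOR group (n = 4) was trained in spatial object recognition, a task in which a mouse learns where objects stand in an arena, and was euthanized 1 h after the last trial. There was 1 library per mouse, and 1 time point, so that earlier or later levels of these genes were not measured here.

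None of the 10 genes passed the main test here, edgeR's quasi-likelihood test across all genes, 1 h after learning. Even so, 9 of the 10 had a higher mean after SOR, as did 43.8% of all tested genes. The 3 with the smallest p were *Nptx2*, *Inhba* and *Vgf*, which encode secreted proteins, and their means were 33.2%, 27.1% and 22.6% higher after SOR. These 3 passed an adjusted p of 0.05 in some of the other fits given below, but no fold reached 1.4. In these 3 genes and in *Plk2*, every SOR mouse lay above every homecage mouse, as in 2.98% of all tested genes. At the other end, *Scg2* was 1.08% higher and *Rgs2* was lower by 5.15%, with overlapping groups in both.

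Effector genes of this kind are switched on in excitatory neurons by synaptic activity and calcium entry. Part of this response runs through the transcription factor CREB, which binds the cAMP response element (CRE). Several of the products are released: neuronal pentraxins gather AMPA receptors at synapses, activin signals through receptor kinases and SMAD proteins, and granins are cut into peptides within secretory vesicles. Others act inside the cell that made them, where polo-like kinases weaken spines, cyclooxygenase starts prostaglandin synthesis and RGS proteins shorten signalling by G proteins. In the hippocampus these genes are known for responses to seizures, long-term potentiation and learning.

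The promoters are shown because a CRE is the sequence feature that several of these genes are known to share. RefSeq (GRCm38.p6) supplied a promoter of 300 bases, reaching from 250 bases before to 50 bases after the start, for 8 of the 10 genes. The entries for *Nptx2* and *Vgf* are missing. Both strands were searched. The full CRE, TGACGTCA, was in 3 of these 8 promoters and in 1.79% of 32851 promoters of the same length. Its short form, TGACG, which also lies inside each full site, was in 7 of the 8 and in 20.8% of all. The CArG box, in 1.63% of all promoters, the AP-1 motif TGANTCA, in 7.81%, the EGR motif GCGTGGGCG, in 0.612%, and the NF-kB motif GGGACTTTC, in 0.353%, matched in 0 of the 8 windows.

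The last 150 bases before the RefSeq start are printed 5′ to 3′ on the gene's own strand for the 3 genes with a full CRE and for *Inhba*, the gene of the 8 with neither form in its window. Capitals mark the full CRE and its short form. Positions are counted from the start, with the base just before it at -1. The full site begins at -62 in *Plk2* (chr13:110394894-110395043, plus strand), at -68 in *Scg2* (chr1:79440027-79440176, minus strand) and at -78 in *Pcsk1* (chr13:75089707-75089856, plus strand), which has a further short form at -50. The *Inhba* stretch is chr13:16011701-16011850 on the plus strand. GENCODE sets some starts elsewhere than RefSeq. Its span of *Scg2* is chr1:79434669-79440120, so that the full site of *Scg2* lies inside that span. Its span of *Pcsk1*, from chr13:75089826, also reaches into the printed stretch, but not to the full site.
Plk2: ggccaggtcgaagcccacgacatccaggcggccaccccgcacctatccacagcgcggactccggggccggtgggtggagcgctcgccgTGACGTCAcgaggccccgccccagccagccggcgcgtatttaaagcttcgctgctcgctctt
Scg2: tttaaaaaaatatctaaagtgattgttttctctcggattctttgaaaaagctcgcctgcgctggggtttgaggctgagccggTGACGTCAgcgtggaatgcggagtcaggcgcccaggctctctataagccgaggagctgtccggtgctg
Pcsk1: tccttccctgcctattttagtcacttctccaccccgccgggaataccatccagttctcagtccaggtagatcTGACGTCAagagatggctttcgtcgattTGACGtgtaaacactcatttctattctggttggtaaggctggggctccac
Inhba: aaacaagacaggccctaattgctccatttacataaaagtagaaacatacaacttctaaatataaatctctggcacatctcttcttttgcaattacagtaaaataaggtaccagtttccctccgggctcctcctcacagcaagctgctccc
The 3 genes with the full site had log2 fold changes of 0.11 (*Plk2*), 0.02 (*Scg2*) and 0.24 (*Pcsk1*), and *Inhba*, with neither, had 0.35. With the short form alone, *Plk3*, *Ptgs2*, *Rgs2* and *Rgs4* had 0.28, 0.13, -0.08 and 0.13. *Nptx2* and *Vgf* have no entry, and a link between motif and change was not tested. A match of letters is a description of the sequence and does not show that a factor was bound.

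Levels are given in CPM, counts divided by the library size after scaling with upper-quartile factors. SOR was set against homecage by edgeR's quasi-likelihood test, fitted to all 22018 genes with Benjamini-Hochberg adjustment over them, and calling a gene took both an adjusted p below 0.05 and a fold over 1.4. Of the 10 genes, 0 were called, where 0.173% of all tested genes were. At an adjusted p under 0.05 alone the number was also 0, against 0.309% of all tested genes. At an unadjusted p under 0.05 it was 6, all higher after SOR, against 4.54% of all tested genes in that direction. All SOR values lay above all homecage values in 4 of the 10, against 2.98% of all tested genes. The median log2 fold change of the 10 was 0.18, and that of all tested genes was -0.02. The groups were of 4 against 4, so that the exact two-sided permutation test of a single gene on log2(CPM + 0.5), over 70 assignments, could give no p below 0.0286.

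**Figure D1:**
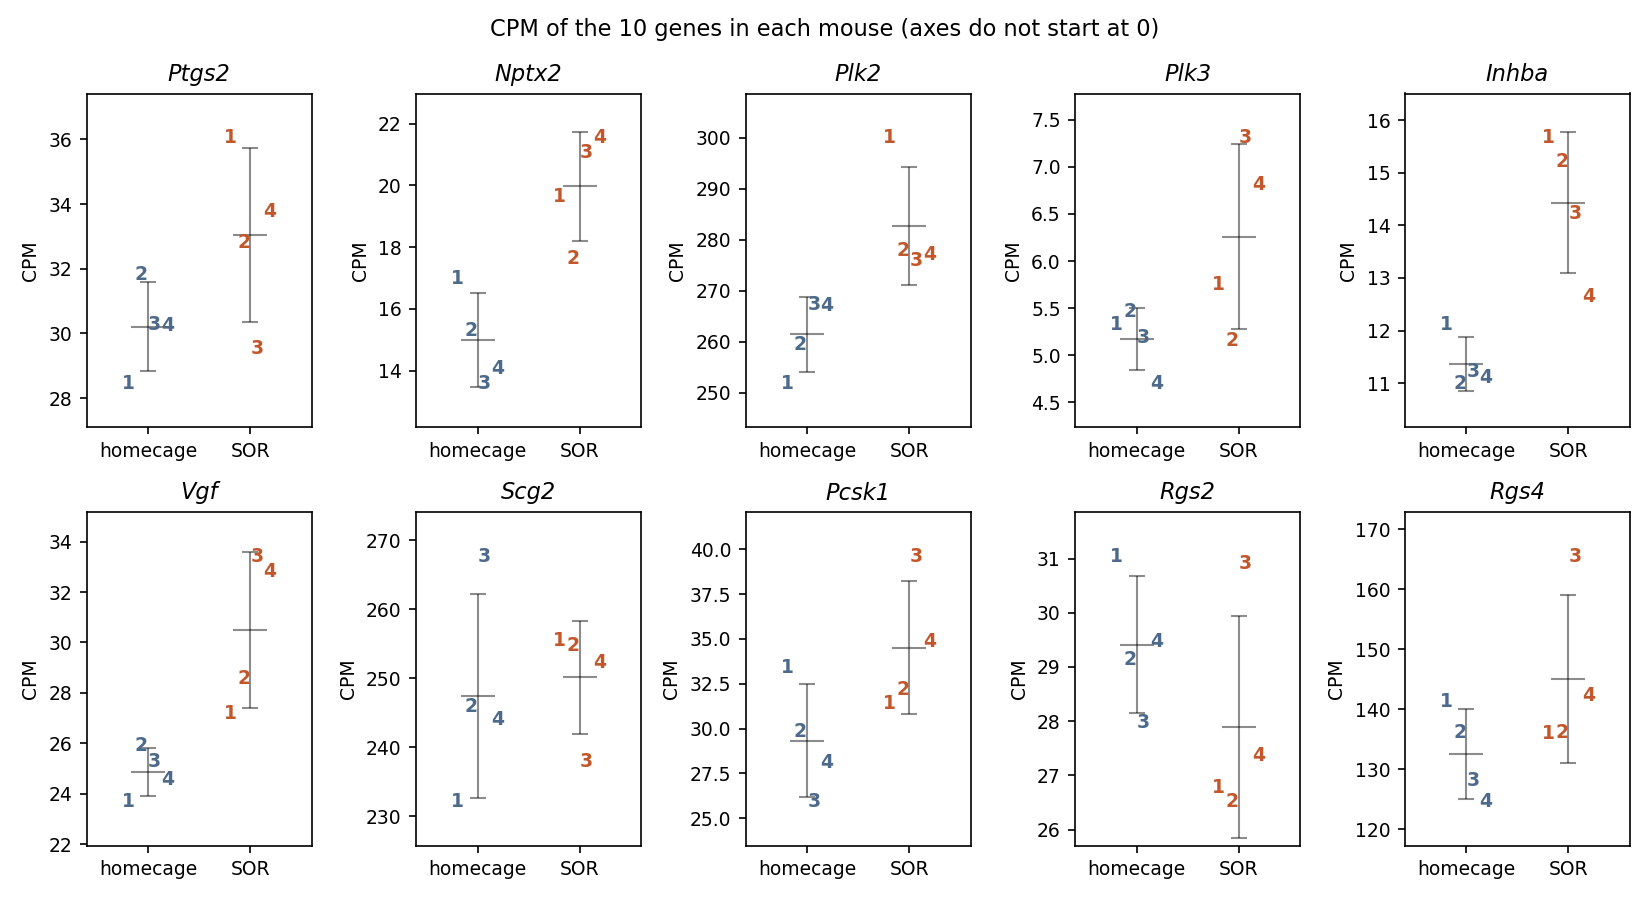
CPM of each of the 10 genes in each mouse, with numbers marking replicates 1 to 4 of the homecage group (blue) and the SOR group (orange) and bars giving the mean ± SD (n = 4 each); axes do not start at 0. The groups do not overlap for *Nptx2*, *Plk2*, *Inhba* and *Vgf*, and they overlap for the other genes.

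*Nptx2*, or Narp, encodes a secreted pentraxin that clusters AMPA receptors, above all on excitatory synapses onto parvalbumin interneurons. Its gene lies at chr5:144545902-144557478 on the plus strand (GRCm38). The homecage mice 1 to 4 had 17.0, 15.3, 13.6 and 14.1 CPM, and the SOR mice had 19.6, 17.6, 21.1 and 21.5 CPM. The lowest SOR mouse thus lay just above the highest homecage mouse, and SOR mice 3 and 4 stood highest. The mean went from 15.0 ± 1.51 to 20.0 ± 1.76 CPM (SD, n = 4 each), which is 0.41 on the log2 scale with an SE of 0.0901 and a 95% interval of the fold from 1.16 to 1.53. The unadjusted p was 8.68e-04 and the adjusted p was 0.122 in edgeR's quasi-likelihood test, and the exact two-sided permutation p was 0.0286, the smallest possible. Its log2 fold change was near the 0.43 of *Homer1*, an early gene of the postsynaptic scaffold that passed the test with an adjusted p of 0.0208 and an SE of 0.0625.

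*Inhba* encodes the inhibin beta A chain, of which a pair forms activin A, a ligand that protects neurons and takes part in late-phase plasticity. It is on chr13:16011851-16031621, plus strand. In homecage mice 1 to 4 its level was 12.1, 11.01, 11.2 and 11.1 CPM, and in SOR mice it was 15.7, 15.2, 14.2 and 12.6 CPM. The homecage values lay close together, and SOR mouse 4 was the lowest of its group while SOR mice 1 and 2 were the highest. From 11.4 ± 0.510 to 14.4 ± 1.34 CPM (SD, n = 4 each), the log2 fold change was 0.35 (SE 0.0826, fold 1.12 to 1.44). The unadjusted p was 0.00165, the adjusted p was 0.156 (edgeR's quasi-likelihood test) and the exact permutation p was 0.0286. Within its span the annotation places *B230303A05Rik* on the opposite strand, without shared exon bases, and this gene had a log2 fold change of 0.07 with an adjusted p of 0.835.

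*Vgf* encodes a precursor of secreted peptides, induced by neurotrophins and by activity, that act on synaptic strength. It is on chr5:137026392-137033351, plus strand. Homecage mice 1 to 4 had 23.7, 25.9, 25.3 and 24.6 CPM, and SOR mice had 27.2, 28.6, 33.4 and 32.8 CPM. SOR mice 3 and 4 stood apart from SOR mice 1 and 2, which lay only a little above the homecage group. The means were 24.9 ± 0.957 and 30.5 ± 3.09 CPM (SD, n = 4 each), with a log2 fold change of 0.29 (SE 0.0740, fold 1.09 to 1.37). Its unadjusted p was 0.00235, its adjusted p 0.179 in edgeR's quasi-likelihood test and its exact permutation p 0.0286.

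*Pcsk1* encodes a convertase that cuts prohormones, among them granins and the VGF precursor, and it lies on chr13:75089826-75134861, plus strand. It had 33.4, 29.8, 25.9 and 28.1 CPM in homecage mice 1 to 4 and 31.4, 32.2, 39.6 and 34.9 CPM in SOR mice. Homecage mouse 1 lay above SOR mice 1 and 2, so that the groups overlapped, and SOR mouse 3 was the highest. Its log2 fold change was 0.24 (SE 0.0918, fold 1.02 to 1.36), with an unadjusted p of 0.0268 and an adjusted p of 0.428 (edgeR's quasi-likelihood test), and the exact permutation p was 0.0857. Without SOR mouse 3 the log2 fold change was 0.16.

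*Scg2* encodes secretogranin II, a vesicle protein that is cut to secretoneurin, and lies on chr1:79434669-79440120, minus strand. The homecage mice had 232.1, 245.9, 267.7 and 244.0 CPM, and the SOR mice had 255.4, 254.8, 237.9 and 252.3 CPM. Homecage mouse 3 was the highest of all 8 mice and SOR mouse 3 was lower than 3 of the homecage mice. SOR over homecage gave a log2 fold change of 0.02 (SE 0.0481), with a fold between 0.939 and 1.09, an adjusted p of 0.95 in edgeR's quasi-likelihood test and an exact permutation p of 0.714. This interval does not reach the fold of 1.4 used to call a gene. The sign turned without homecage mouse 1, where the log2 fold change was -0.01.

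**Figure D2:**
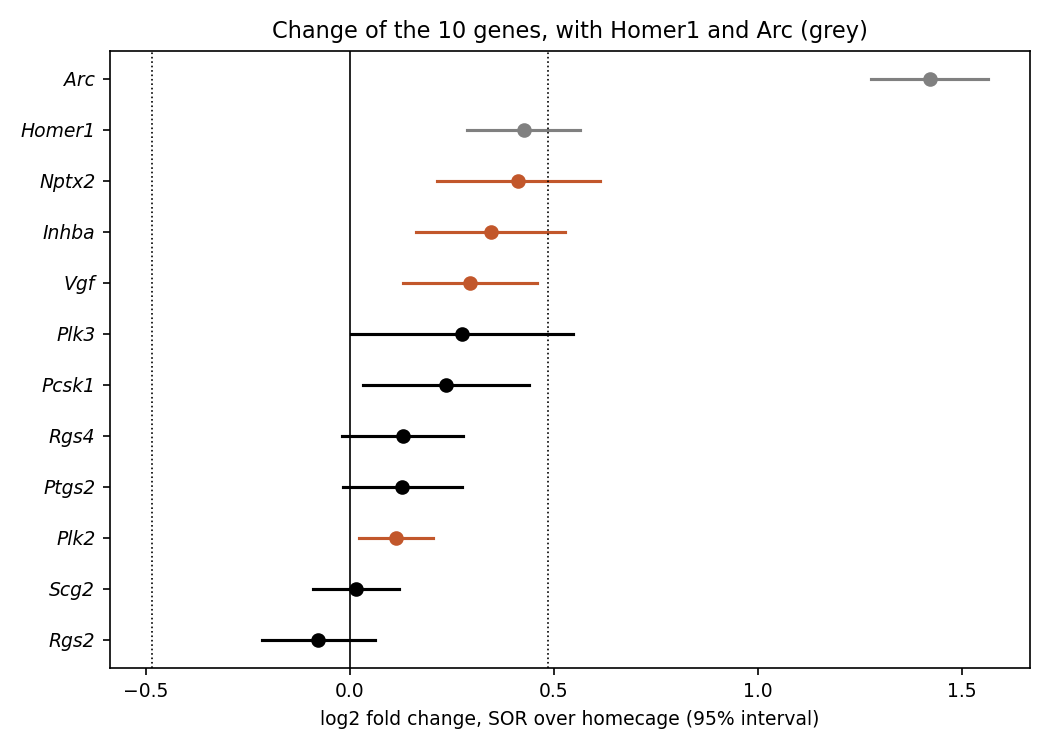
Log2 fold change of SOR over homecage (points) with its 95% interval (lines) for the 10 genes, and for *Homer1* and *Arc* in grey; orange marks genes with all SOR mice above all homecage mice, and dotted lines mark a fold of 1.4 in either direction. *Nptx2* (0.41) comes nearest to *Homer1* (0.43), and *Arc* (1.42) lies beyond all others.

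Among the enzymes, *Plk2* encodes a polo-like kinase that marks the spine protein SPAR (*Sipa1l1*) for degradation and so scales synapses down. It is on chr13:110395046-110400844, plus strand. Homecage mice 1 to 4 had 251.9, 259.4, 267.4 and 267.1 CPM, and SOR mice had 299.99, 277.9, 275.9 and 277.1 CPM. SOR mouse 1 stood well above its group, whereas the other 3 SOR mice lay within a narrow band just over the homecage mice. The log2 fold change was 0.11 (SE 0.0411, fold 1.02 to 1.15), and it was 0.08 without SOR mouse 1. The unadjusted p was 0.0196 and the adjusted p was 0.391 in edgeR's quasi-likelihood test, with an exact permutation p of 0.0286. The change was thus the smallest of the 4 genes without overlap between the groups, in the gene with the highest counts, 13866 to 22309 per library.

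*Plk3* encodes a related kinase that responds to stress and growth signals, and it is on chr4:117128655-117133963, minus strand. It had the lowest counts of the 10, 286 to 476 per library. In homecage mice 1 to 4 the level was 5.32, 5.46, 5.19 and 4.71 CPM, and in SOR mice it was 5.76, 5.15, 7.31 and 6.81 CPM. SOR mouse 2 lay below 3 homecage mice, while SOR mice 3 and 4 were clearly higher. Between the groups the log2 fold change was 0.28 (SE 0.123, fold 1.002 to 1.46), with an unadjusted p of 0.0475, an adjusted p of 0.491 in edgeR's quasi-likelihood test and an exact permutation p of 0.114. Exons of *Plk3* overlap those of *Tctex1d4* on the opposite strand, whose level was 0.758 to 1.38 CPM in homecage mice and 0.476 to 0.780 CPM in SOR mice, and the sources used here do not say whether counting used strand.

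*Ptgs2* encodes cyclooxygenase-2, the inducible enzyme that makes prostaglandin precursors and in brain is found mainly in excitatory neurons (chr1:150100031-150108227, plus strand). The homecage mice had 28.5, 31.8, 30.3 and 30.2 CPM, and the SOR mice had 36.1, 32.8, 29.5 and 33.8 CPM. SOR mouse 3 fell within the homecage range, and the other 3 were above it. The log2 fold change was 0.13 (SE 0.0662, fold 0.988 to 1.21), the adjusted p was 0.550 in edgeR's quasi-likelihood test and the exact permutation p was 0.114. Leaving out SOR mouse 1 took the log2 fold change to 0.08.

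*Rgs2* and *Rgs4* encode proteins that speed the shut-off of G proteins, *Rgs2* with a preference for Gq and *Rgs4* acting on Gi and Gq. Both lie on chromosome 1, at chr1:143999338-144004161 and chr1:169741477-169747642, on the minus strand. *Rgs2* had 31.05, 29.1, 28.0 and 29.5 CPM in homecage mice 1 to 4 and 26.8, 26.5, 30.9 and 27.4 CPM in SOR mice. It was the one gene of the 10 with a lower mean after SOR, since 3 SOR mice lay below all homecage mice and SOR mouse 3 above 3 of them. Its log2 fold change was -0.08 (SE 0.0628, fold 0.861 to 1.04), with an adjusted p of 0.744 in edgeR's quasi-likelihood test and an exact permutation p of 0.257. It was -0.13 without SOR mouse 3 and -0.05 without homecage mouse 1.

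*Rgs4* had 141.2, 136.0, 128.1 and 124.6 CPM in homecage mice and 136.0, 136.2, 165.5 and 142.2 CPM in SOR mice. SOR mouse 3 was far above the other mice, and SOR mice 1 and 2 lay within the homecage range. For *Rgs4* the log2 fold change was 0.13 (SE 0.0670, fold 0.987 to 1.21), the adjusted p 0.554 in edgeR's quasi-likelihood test and the exact permutation p 0.143. Without SOR mouse 3 it was 0.06.

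The genes did not rank the SOR mice in 1 order. SOR mouse 3 had the highest value of its group for 5 genes (*Plk3*, *Vgf*, *Pcsk1*, *Rgs2* and *Rgs4*) and the lowest for 3 (*Ptgs2*, *Plk2* and *Scg2*). SOR mouse 1 was the highest for 4 (*Ptgs2*, *Plk2*, *Inhba* and *Scg2*) and the lowest for 3 (*Vgf*, *Pcsk1* and *Rgs4*). SOR mouse 4 was the highest for *Nptx2* and the lowest for *Inhba*, and SOR mouse 2 was the highest for none.

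In whole tissue, fewer cells of a type and less RNA per cell cannot be told apart, so marker genes of cell types are given beside these values. All CA1, CA3 and dentate granule neuron markers were detected, and their summed levels overlapped between the groups, with 342 to 409 CPM for the dentate markers in homecage mice and 346 to 395 CPM in SOR mice. Choroid plexus markers summed to 25.1 to 1099.7 CPM in homecage mice and to 41.5 to 4016 CPM in SOR mice, with the highest sum in SOR mouse 1, and 7 of 7 had a higher mean after SOR while 0 passed the test. SOR mouse 1 also stood apart over all genes, with 548 genes more than 1.5-fold from the rest of its group, against 194 to 390 in the other libraries. Markers of cortex outside the hippocampus summed to 288 to 326 CPM in homecage mice and to 271 to 340.5 CPM in SOR mice, highest in SOR mouse 3 and lowest in SOR mouse 1, and 2 of 8 had a higher mean. Mature oligodendrocyte markers summed to 5021 to 5480 CPM in homecage mice and to 4109 to 5381 CPM in SOR mice, lowest in SOR mouse 3, with 6 of 6 lower means and 0 past the test in edgeR's quasi-likelihood fit. *Opalin*, a myelin gene of this list chosen after its values were seen, had all SOR mice below all homecage mice and a log2 fold change of -0.50 (adjusted p = 0.164). Red blood cell markers were higher in 5 of 5, a median of 0.37 on the log2 scale and sums of 98.6 to 126.7 CPM in homecage mice and 115 to 184 CPM in SOR mice, highest in SOR mice 4 and 1. Meningeal fibroblast markers were higher in 6 of 6, with a median of 0.21 and sums of 154 to 261 CPM in homecage mice and 207 to 345 CPM in SOR mice. Endothelial markers were higher in 4 of 7 and summed to 129 to 156 CPM and 141 to 144 CPM, and among them *Cldn5*, of the tight junction and also chosen after its values were seen, had all SOR mice below all homecage mice (-0.30, adjusted p = 0.199). Microglial markers were higher in 2 of 6 and summed to 258 to 293 CPM and 251 to 282 CPM. In these last 4 lists 0 genes passed edgeR's quasi-likelihood test. The part of these marker levels in the values of the 10 genes was not tested. With SOR mouse 1 left out, *Nptx2*, *Inhba* and *Vgf* had log2 fold changes of 0.42, 0.30 and 0.35, and with SOR mouse 3 left out they had 0.39, 0.35 and 0.25.

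**Figure D3:**
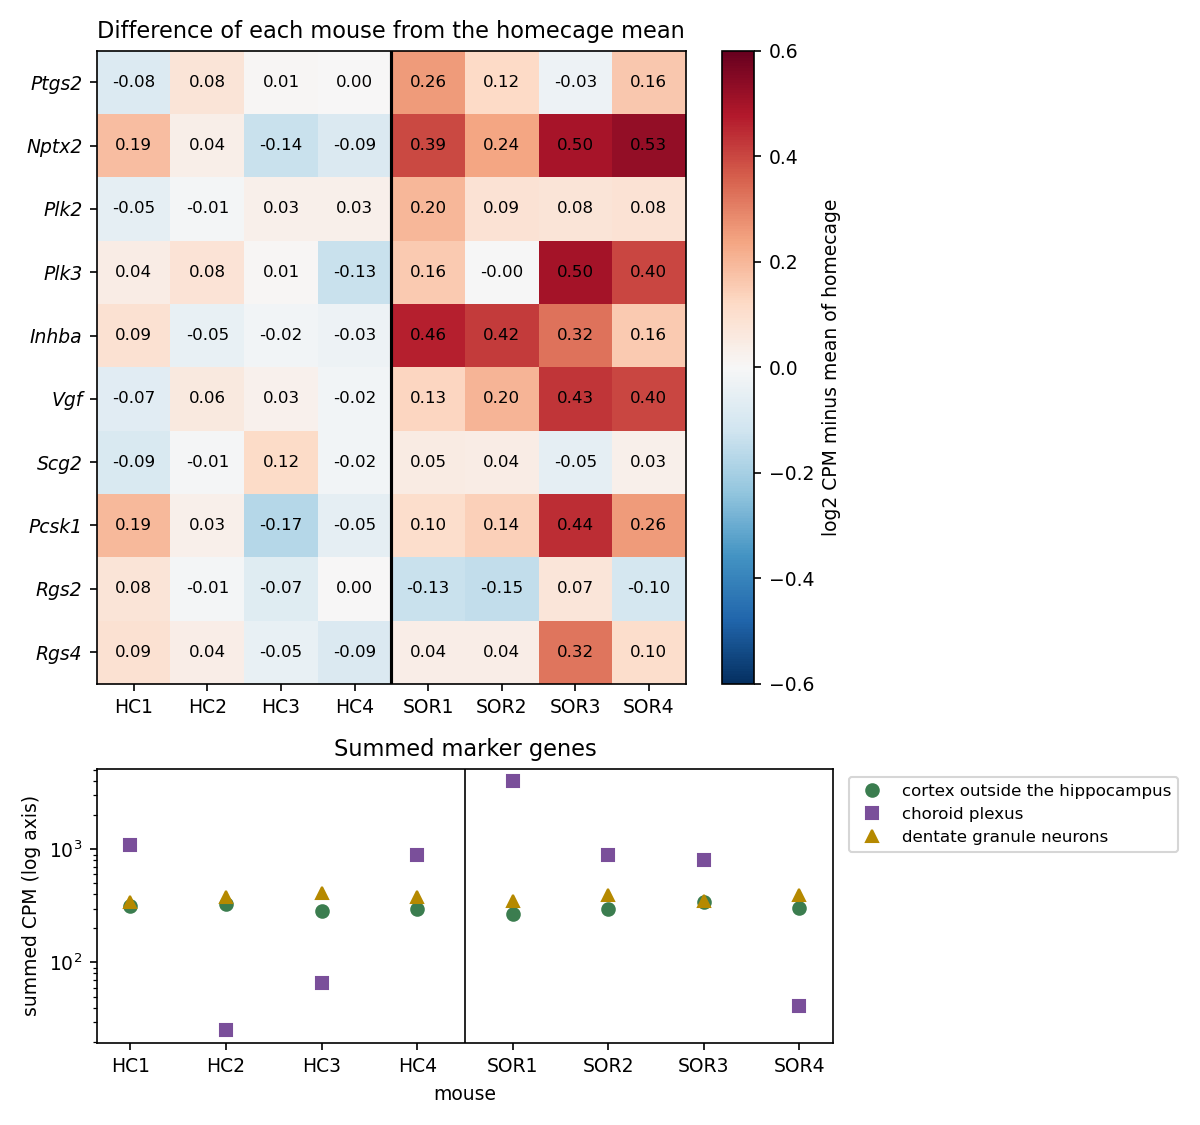
Top, log2 CPM of each gene in each mouse minus the mean log2 CPM of the 4 homecage mice, from blue (lower) to red (higher). Bottom, summed CPM (log axis) of markers of cortex, choroid plexus and dentate granule neurons in the same mice. Positive values run through all SOR mice for *Nptx2*, *Inhba*, *Vgf*, *Plk2*, *Pcsk1* and *Rgs4*, although the groups overlap for *Pcsk1* and *Rgs4*. Choroid plexus markers peak at 4016 CPM in SOR mouse 1.

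The outcome for *Nptx2*, *Inhba* and *Vgf* differed between fits, and the cause was not tested. Their log2 fold changes stayed within 0.41 to 0.44, 0.33 to 0.37 and 0.28 to 0.32 over 13 other fits to all 8 mice. With DESeq2 all 3 passed an adjusted p of 0.05 (9.99e-04, 0.00274 and 0.00606), and so they did once 1, 2 or 3 RUVs factors were added to a likelihood ratio fit, factors that stand for differences between replicates of the same group. The paper's own bulk analysis also used RUVs, with a number of factors that it did not state. In the likelihood ratio test without such factors, *Nptx2* alone passed, with an adjusted p of 0.0173. In each of these 5 fits 1 of the 6 mature oligodendrocyte markers also passed an adjusted p of 0.05, and so did 1 endothelial marker in DESeq2 and with 2 factors, 1 microglial and 1 red blood cell marker with 2 and 3 factors, and 1 and 2 choroid plexus markers with 2 and 3 factors. In every other fit run, scalings, filters, limma-voom and each mouse left out included, the adjusted p of these 3 genes was over 0.05, and the other 7 genes did not pass in any fit. As no fold reached 1.4, none of the 10 was called in any fit.

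**Figure D4:**
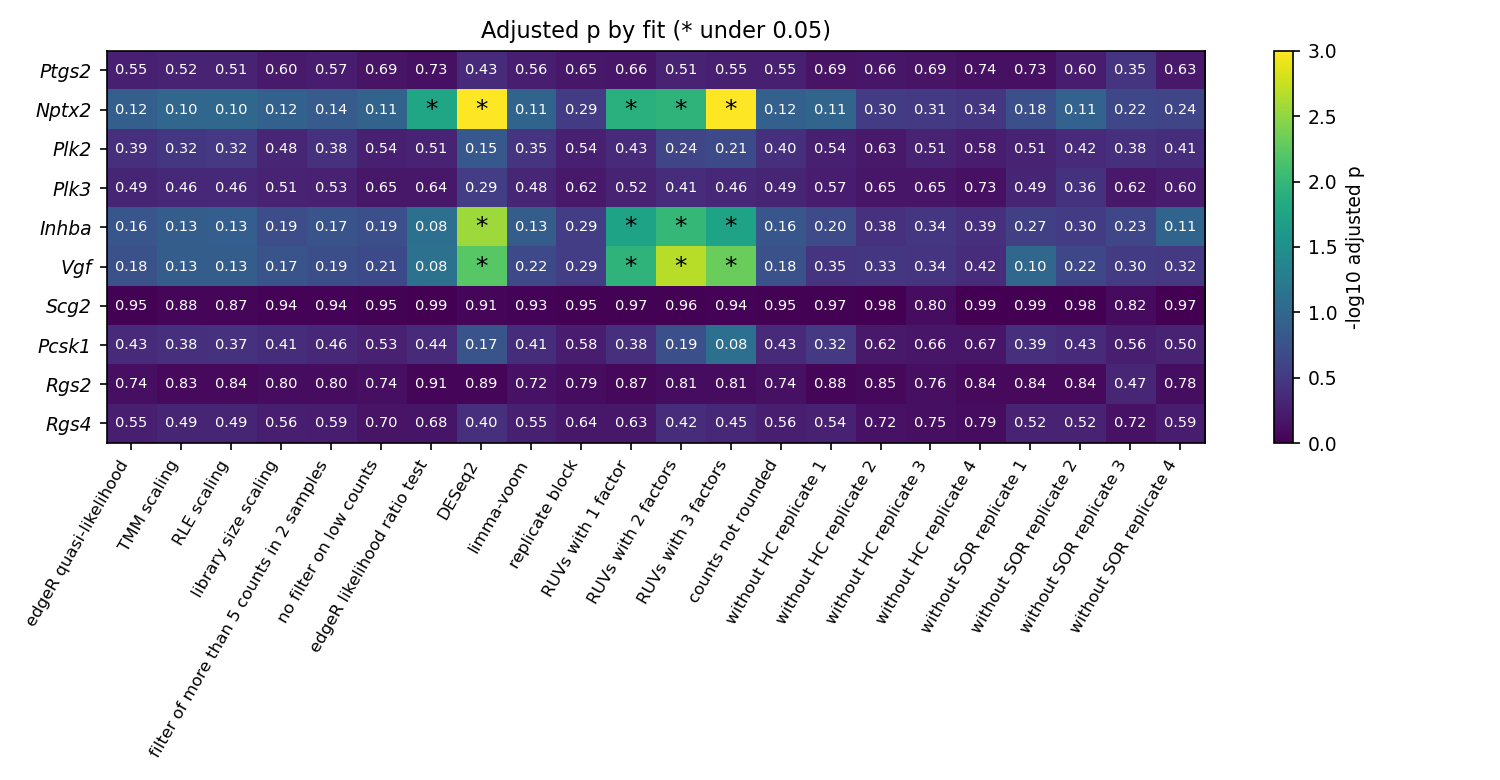
Adjusted p of the 10 genes (rows) in edgeR's quasi-likelihood test and in each other fit (columns), coloured by -log10 adjusted p, with stars for values under 0.05. Stars stand only for *Nptx2*, *Inhba* and *Vgf*, in DESeq2 and the fits with RUVs factors, and for *Nptx2* in the likelihood ratio test.

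Levels between genes were compared as CPM per kb of exon in homecage mice. *Scg2* was the highest with 98.4 ± 5.89, followed by *Plk2* with 58.2 ± 1.64 and *Rgs4* with 42.8 ± 2.43 CPM per kb (SD, n = 4). Then came *Vgf* (8.36), *Rgs2* (8.11), *Ptgs2* (6.59), *Nptx2* (5.91) and *Pcsk1* (5.23), and the lowest were *Plk3* (2.04) and *Inhba* (1.78). The highest level was 55.3 times the lowest. Neighbours in this order whose homecage ranges overlapped were *Vgf* and *Rgs2*, *Ptgs2* and *Nptx2*, *Nptx2* and *Pcsk1*, and *Plk3* and *Inhba*. In SOR mice *Nptx2* stood at rank 5, ahead of *Rgs2* and *Ptgs2*, with 7.87 ± 0.695 CPM per kb.

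**Figure D5:**
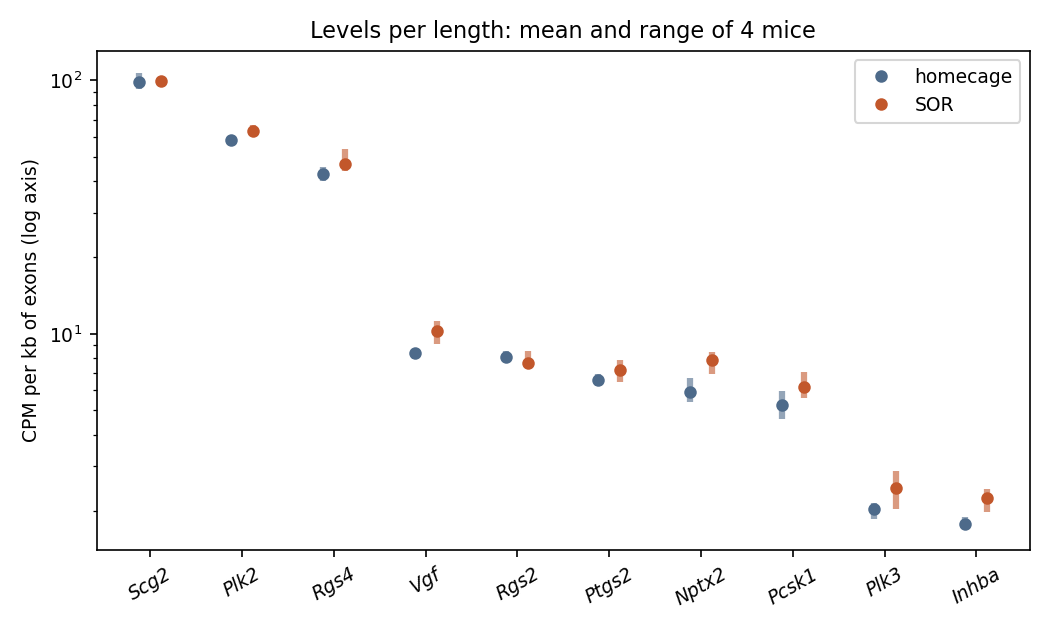
Mean (points) and range (bars) of CPM per kb of exon, on a log axis, for each gene in the 4 homecage mice (blue) and the 4 SOR mice (orange). *Scg2*, *Plk2* and *Rgs4* lie at 40.2 CPM per kb or more in every mouse, and the other 7 genes reach at most 11.2.

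The pathways around these genes were then read from lists that hold the members and named partners. The counts of higher means below thus include the members. Over all tested genes, 43.8% had a higher mean after SOR. In the 6 lists, 0 genes passed the adjusted threshold (edgeR's quasi-likelihood test). Of neuronal pentraxins and AMPA receptor subunits, 3 of 8 tested genes had a higher mean after SOR. The log2 fold change was 0.09 for *Nptx1*, the other secreted pentraxin, and -0.01 for *Nptxr*, the membrane-bound pentraxin receptor, while it was -0.00 for *Gria1* and -0.03 for *Gria2*, the main AMPA receptor subunits. *Adam17*, a sheddase, had 0.17 (adjusted p = 0.492).

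Of activin ligands, receptors, inhibitors and SMADs, 15 of 17 were tested and 8 had a higher mean. *Inhbb*, the other beta chain expressed here, had a log2 fold change of -0.05, the inhibitor *Fst* had 0.09 with an SE of 0.221, and the receptors *Acvr2a* and *Acvr1* had -0.01 and 0.17 (adjusted p = 0.986 and 0.404). Of granins and enzymes of prohormone processing, 5 of 11 were higher. The convertase *Pcsk2* had -0.07, the carboxypeptidase *Cpe* had -0.02, the amidating enzyme *Pam* had 0.03, and the granins *Chgb* and *Chga* had 0.02 and -0.08. Thus *Vgf* and *Pcsk1* were the 2 of this list with an unadjusted p under 0.05.

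Among polo-like kinases and their substrates, 4 of 9 had a higher mean, and *Sipa1l1*, the SPAR gene, had a log2 fold change of 0.06 (adjusted p = 0.770). Of genes of prostanoid synthesis and reception, 6 of 17 tested were higher. *Ptgs1*, the constitutive cyclooxygenase, had -0.15, the inducible prostaglandin E synthase *Ptges* had 0.28 with an SE of 0.226, and the receptor *Ptger4* had -0.00. In the RGS family 18 of 21 genes were tested and 8 were higher. *Rgs19* had 0.28 with all SOR mice above all homecage mice (adjusted p = 0.329), while *Rgs9* and *Rgs10* had -0.16 and -0.13 with all SOR mice below all homecage mice (adjusted p = 0.559 and 0.506). *Rgs20* had -0.26 (adjusted p = 0.487).

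For scale, 12 other early-response genes were read from the same fit, and 9 of them passed the adjusted threshold, all higher after SOR. Over all 12 the median log2 fold change was 1.10, and the list was chosen with results of these mice known. *Arc*, which encodes a synaptic protein that drives AMPA receptor endocytosis, rose by 1.42 on the log2 scale, from 91.9 ± 4.98 CPM in homecage mice to 246 ± 21.02 CPM in SOR mice (adjusted p = 8.27e-06, edgeR's quasi-likelihood test). The transcription factor genes *Egr2*, *Fos*, *Fosb*, *Egr4*, *Nr4a1*, *Egr1* and *Junb* had log2 fold changes of 2.75, 1.89, 1.84, 1.17, 1.12, 1.09 and 0.75, with adjusted p between 4.66e-04 and 0.0212 in the same test. *Bdnf*, a secreted neurotrophin, had 0.17 (adjusted p = 0.400), and *Nrn1*, a membrane-anchored effector, had 0.01 (adjusted p = 0.984). *Npas4*, a transcription factor gene, was the 1 of the 12 with a lower mean after SOR. It went from 3.49 to 2.48 CPM with overlapping groups, a log2 fold change of -0.49 (adjusted p = 0.503, same test). The effectors of the 10 with the largest differences thus lay at or below *Homer1*, and each of their 95% intervals lay below that of *Arc*.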

How the data were processed

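Libraries were made from total RNA depleted of ribosomal RNA per the methods, while the labels name polyA RNA. The authors aligned reads to mm10 with STAR within bcbio-nextgen. The deposited values are estimated counts per gene, summarized with tximport and not normalized, for 1 library per mouse. featureCounts is named, and the quantifier behind the decimals (52.5% of values), its annotation and any length scaling are not given in the sources used here. Totals were 51406011 to 81525977 per library. The other data types of the series were not analysed here.

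The members and all gene lists were chosen with earlier results of these data known. Counts were rounded, genes filtered with filterByExpr and libraries scaled with upper-quartile factors. SOR and homecage mice (n = 4 each) were compared over 22018 genes with the quasi-likelihood test of edgeR 4.0.16 in R 4.3.3, with Benjamini-Hochberg adjustment. The paper's bulk analysis used upper-quartile scaling, RUVs factors and edgeR, while this main fit holds no RUVs factor. SE and 95% intervals follow from the main fit. For each member, log2(CPM + 0.5) also went through a two-sided exact permutation test. Exon lengths and loci came from GENCODE M21 (GRCm38), which covers 54495 of 54532 genes.

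Named were all 10 members with every mouse, list genes past an adjusted p of 0.05, and partners of the members. Genes most alike in profile were to be named for members past that threshold, and there were 0. The few list genes named for an unadjusted p under 0.05 or for groups without overlap were chosen after their values were seen, as was the choice of *Homer1* and *Arc* for scale in the plot. Other settings tried were scaling by library size, RLE or TMM, no filter or one that asks for over 5 counts in 2 samples, the likelihood ratio test, DESeq2 1.42.0, limma-voom (limma 3.58.1), a test against a fold of 1.4, RUVs with 1 to 3 factors, a replicate block, counts not rounded, no fold threshold, a pseudocount of 0.1 and each mouse left out. Of these fits, only the quasi-likelihood and likelihood ratio tests were also run on simulated data, with the same spread set for every gene.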

Additional observations from a re-analysis of the deposited data

Results flagged for a closer look

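*Plk2* in SOR mouse 1 was 299.99 CPM, while the other 3 SOR mice had 275.9 to 277.9 CPM. Its gap to the nearest mouse was 0.916 of the range of the group, above Dixon's 95% critical value for 4 samples. The 10 genes were checked in both groups, 20 groups in all, and 1 was marked, where chance marks about 1 in 20. Choroid plexus markers were also highest in this mouse (4016 CPM), and their part in the *Plk2* value was not tested. Without it, the log2 fold change was 0.08 instead of 0.11.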

How the results depend on the processing

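None of the 10 genes was called in any alternative. The number of the 10 past an adjusted p of 0.05 was 0 in edgeR's quasi-likelihood test, 1 in the likelihood ratio test (*Nptx2*), and 3 (*Nptx2*, *Inhba* and *Vgf*) in DESeq2 and with 1, 2 or 3 RUVs factors; the cause was not tested. Over all genes the number called was 38, against 105 in the likelihood ratio test, 114 in DESeq2, 134, 191 and 203 with 1, 2 and 3 RUVs factors, 68 without a fold threshold and 8 in the test against a fold of 1.4. At an adjusted p under 0.05 alone it was 68, against 214 in the likelihood ratio test, 435 in DESeq2, 305, 500 and 508 with 1, 2 and 3 RUVs factors and 8 against a fold of 1.4. Leaving out each mouse gave 22 to 38 calls over all genes, with 22 without homecage mouse 2 and 25 without homecage mouse 4, and 30 to 55 genes past the adjusted threshold, with 39, 30, 41 and 30 without homecage mice 1 to 4 and 36, 44 and 43 without SOR mice 2, 3 and 4. These fits hold fewer samples. Of the log2 fold changes of the 10 genes, only that of *Scg2* turned its sign, to -0.012 without homecage mouse 1, in a range up to 0.0558 over the mice left out. The number of genes with all SOR mice above all homecage mice was 4 under each scaling, with a pseudocount of 0.1 and with counts not rounded. Leaving out a mouse, chosen after seeing the data, can only keep or raise this number, and its values of 4 and 5 say nothing of stability.

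The replicate block gave 30 calls over all genes and 40 genes past the adjusted threshold, with 0 of the 10, and adjusted p of 0.293 for *Nptx2*, 0.286 for *Inhba* and 0.286 for *Vgf*. Same-numbered mice did not deviate together: their correlations lay between -0.0837 and 0.073 and those of other pairs between -0.2 and 0.194. With so few mice, these values cannot show whether same-numbered mice shared a day or batch. No mouse correlated best with its own number.

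Pairs of replicates had chi-square values of 11.9 to 54.1 for each degree of freedom, above the value of 1 that counting error gives. The p-values rest on the spread between these mice, and no source used here says how litters or days fell between the groups.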
